A study of Mus musculus with 10 samples.

Results

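Egr1, Egr2, Egr3, Nr4a1, Nr4a2 and Nr4a3 are the immediate-early members of a pair of transcription factor families, and their transcript levels were read here in salivary glands of diabetic and nondiabetic mice. Each of the 6 genes had 1 probe set with a single gene symbol, and all 6 passed the filter on dim genes, among 18826 genes of 22180 named ones that passed it. Salivary glands came from female mice of the NOD/shiLtJ strain, which is prone to autoimmune diabetes and to inflammation of these glands. The tissue was cut up in dispase II and collagenase IV at body heat, filtered to cells and extracted with Trizol, and total RNA was hybridised to 10 Affymetrix arrays. The groups were mice with type 1 diabetes at 21 weeks of age (n = 4), mice with no diabetes at 21 weeks (n = 3) and mice with no diabetes at 6 weeks (n = 3). All groups share strain and sex, and no treatment, transgene or deletion is labelled in any of them. The labels give a number per group member but no cage, day or particular gland. Each array was therefore read as a separate mouse, and the p-values measure the spread between these arrays.

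Egr proteins are zinc-finger factors that bind a GC-rich element. Their genes are switched on within minutes of a growth factor, stretch or stress signal, mainly through serum response factor and its ETS partners, and the Nab proteins then restrain them. Nr4a proteins are orphan nuclear receptors that bind the NBRE element alone or with a retinoid X receptor, and their genes answer cyclic AMP, calcium and antigen receptor signals through CREB. Egr2 is also known for myelination by Schwann cells and, with Egr3 and the Nr4a genes, for restraint of activated T cells. Genes of this class are also known to respond to tissue dissociation, which every group here went through. In a mixed tissue, fewer cells of a type and less RNA per cell cannot be told apart.

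The stretches of 250 bases before the annotated starts of Nr4a1, Nr4a2 and Nr4a3 are shown for a motif through which CREB acts on this family. The part of CREB in the differences below was not tested. The sequences are from RefSeq, mouse build GRCm38.p6, and run 5′ to 3′ on the strand of the gene. Capitals mark the core of the cyclic AMP response element, CRE (TGACG, or CGTCA on the other strand).
Nr4a1 (chr15:101266596-101266845, plus strand): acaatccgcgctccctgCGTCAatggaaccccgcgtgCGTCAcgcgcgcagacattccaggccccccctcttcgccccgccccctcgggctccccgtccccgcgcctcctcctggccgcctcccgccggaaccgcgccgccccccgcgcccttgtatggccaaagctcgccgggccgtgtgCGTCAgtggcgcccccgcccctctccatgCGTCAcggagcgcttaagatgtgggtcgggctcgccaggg
Nr4a2 (chr2:57124004-57124253, minus strand): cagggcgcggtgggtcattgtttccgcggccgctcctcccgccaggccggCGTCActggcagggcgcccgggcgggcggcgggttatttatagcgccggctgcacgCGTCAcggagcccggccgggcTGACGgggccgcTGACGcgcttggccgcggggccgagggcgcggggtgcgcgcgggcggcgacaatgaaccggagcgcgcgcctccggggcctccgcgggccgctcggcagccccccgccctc
Nr4a3 (chr4:48045055-48045304, plus strand): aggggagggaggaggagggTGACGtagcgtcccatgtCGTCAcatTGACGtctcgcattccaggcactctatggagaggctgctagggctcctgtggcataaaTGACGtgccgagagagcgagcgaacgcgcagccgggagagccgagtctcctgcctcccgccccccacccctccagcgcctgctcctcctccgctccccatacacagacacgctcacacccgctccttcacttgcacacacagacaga
Each window holds 4 CRE cores. Of 32817 such windows in the table, 17.7% held at least 1 core and 0.689% held 3 or more. The full palindrome TGACGTCA (in 1.55% of windows), the NBRE AAAGGTCA (1.34%) and the EGR element GCGTGGGCG (0.536%), each searched on both strands, were not found in these 3 windows. The CRE core is part of the palindrome, so those matches overlap.

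Egr2 has 5 annotated starts in the table. The window before 4 of them holds a CArG box, the element bound by serum response factor, which 1.47% of all windows hold. Most of these Egr2 windows overlap and hold the same box, so they are not separate matches. A stretch of 30 bases before 1 of these starts is shown for its CArG box and CRE core, both in capitals.
Egr2 (chr10:67537793-67537822, plus strand): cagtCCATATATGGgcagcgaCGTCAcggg
Egr4, a family member outside the 6, had 2 CRE cores and 0 CArG boxes in its window. A match is a run of letters and not a shown binding site. The map of motif positions sets these 5 windows side by side.

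**Figure D1:**
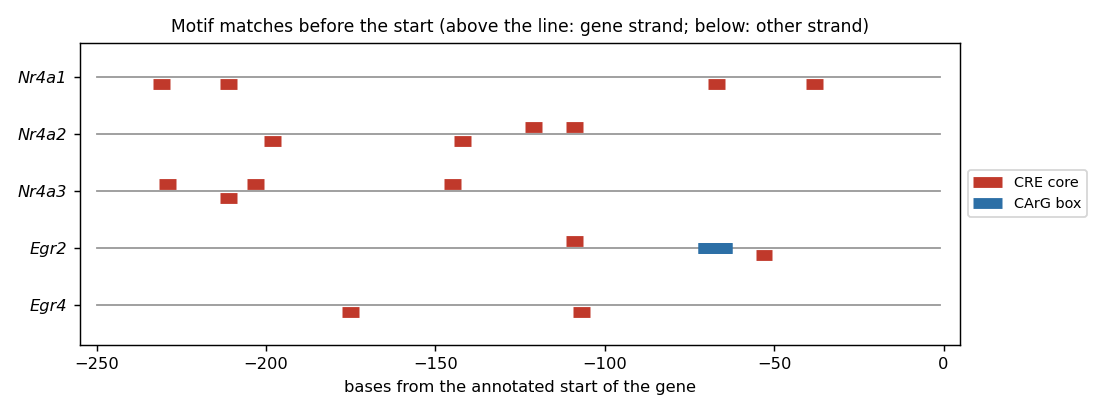
Matches to the CRE core (red) and the CArG box (blue) in the 250 bases before 1 annotated start of Nr4a1, Nr4a2, Nr4a3, Egr2 and Egr4 (rows). The x axis gives bases from the start, with matches on the strand of the gene above the line and those on the other strand below it, and the CArG box on the line. The 3 Nr4a windows hold 4 CRE cores each, and the Egr2 window holds 2 cores and 1 CArG box.

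All values below are RMA log2 intensities, and each log2 difference carries the standard error from 1 limma fit over the 10 arrays. Adjusted p-values come from that fit, with Benjamini-Hochberg adjustment over 18826 genes, and a gene was called where the adjusted p was under 0.05. A level depends on the probe set, so levels are compared between arrays and not between genes. Nondiabetic 21-week array 3 correlated least well with the rest over these genes (0.917 to 0.961, against 0.934 to 0.983 among the other 9 arrays). Egr3 was dim, below the median probe set on nondiabetic 21-week array 2 and nondiabetic 6-week array 3, while the other 5 genes lay above the median on every array.

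The comparison of diabetic with nondiabetic glands at 21 weeks sets the disease against its absence at the same age. Egr1, Nr4a1 and Nr4a2 were higher in the diabetic glands, Egr1 and Nr4a2 by about 2-fold. Among the 6 genes, 3 were called as higher and 0 as lower, beside 1.1% of all genes called as higher and 0.34% as lower (1.44% in either direction). The same 3 genes had diabetic values wholly above the nondiabetic ones, which held for 9.11% of all genes (4.98% lay wholly below). The median difference was 0.57 over the 6 genes and 0.03 over all genes.

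Egr1, the family member most widely used as a marker of recent stimulation, read 7.18, 7.33, 7.51 and 7.84 on the diabetic arrays, against 6.15, 6.26 and 6.37 on the nondiabetic 21-week arrays. The lowest diabetic value stood 0.81 above the highest nondiabetic one. The rise was 2.31-fold (log2 difference 1.21 ± 0.17, 95% interval 0.83 to 1.58, adjusted p = 0.00479), and Egr1 ranked 41 of 18826 genes by p. It was called under every one of the 24 alternatives, with adjusted p-values of 0.00154 to 0.0248.

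Nr4a2, also called Nurr1 and best known for its need in dopamine neurons, read 6.37, 6.12, 6.27 and 6.07 on the diabetic arrays, against 5.45, 5.17 and 4.90 on the nondiabetic 21-week arrays. The groups did not overlap, and the gap between them was 0.62. It rose 2.05-fold (1.03 ± 0.14, 95% interval 0.72 to 1.35, adjusted p = 0.00414) and ranked 37 by p. The call stood under all 24 alternatives as well (adjusted p 0.00154 to 0.0202).

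Nr4a1, also called Nur77, which is induced by T cell receptor signals and by many hormones, read 8.04, 8.14, 8.17 and 8.69 on the diabetic arrays, against 7.54, 7.68 and 7.39 on the nondiabetic 21-week arrays. The groups were apart by 0.36. It rose 1.65-fold (0.72 ± 0.16, 95% interval 0.38 to 1.06, adjusted p = 0.0419). This call lay close to the threshold: it was lost under 15 of 24 alternatives, with the difference between 0.51 and 0.80 and the adjusted p between 0.0202 and 0.154. It was lost without 8 of the 10 arrays, namely diabetic array 2 (adjusted p = 0.0754) or 3 (0.106), nondiabetic 21-week array 1 (0.0936), 2 (0.0654) or 3 (0.154), and nondiabetic 6-week array 1 (0.0578), 2 (0.0629) or 3 (0.0678).

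Egr2, Egr3 and Nr4a3 had positive differences that did not pass the test, and their groups overlapped. Egr2 read 4.89, 4.34, 4.52 and 5.44 on the diabetic arrays, against 4.50, 4.83 and 4.02 on the nondiabetic 21-week arrays (0.35 ± 0.24, 95% interval -0.18 to 0.88, adjusted p = 0.517). Diabetic array 4 was the highest of all and diabetic array 2 lay below the nondiabetic arrays 1 and 2. Egr3, which acts beside Egr2 in lymphocytes and is needed for muscle spindles, read 4.06, 4.07, 3.92 and 4.47 on the diabetic arrays, against 4.05, 3.42 and 3.67 on the nondiabetic 21-week arrays (0.42 ± 0.21, 95% interval -0.03 to 0.87, adjusted p = 0.343). Nr4a3, also called Nor1, read 5.31, 5.12, 5.04 and 5.98 on the diabetic arrays, against 4.82, 4.75 and 5.43 on the nondiabetic 21-week arrays (0.36 ± 0.22, 95% interval -0.11 to 0.84, adjusted p = 0.447). The intervals of these 3 genes include 0 and reach up to 0.84 to 0.88, so a rise of the size seen for Nr4a1 lies within them. Single arrays moved all 3 differences by over 1.5 times. Without diabetic array 4 the difference was 0.135 for Egr2 and 0.159 for Nr4a3. Without nondiabetic 21-week array 2 it was 0.54 for Egr2, 0.27 for Egr3 and 0.24 for Nr4a3, and without nondiabetic 21-week array 3 it was 0.13 for Egr2 and 0.58 for Nr4a3.

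**Figure D2:**
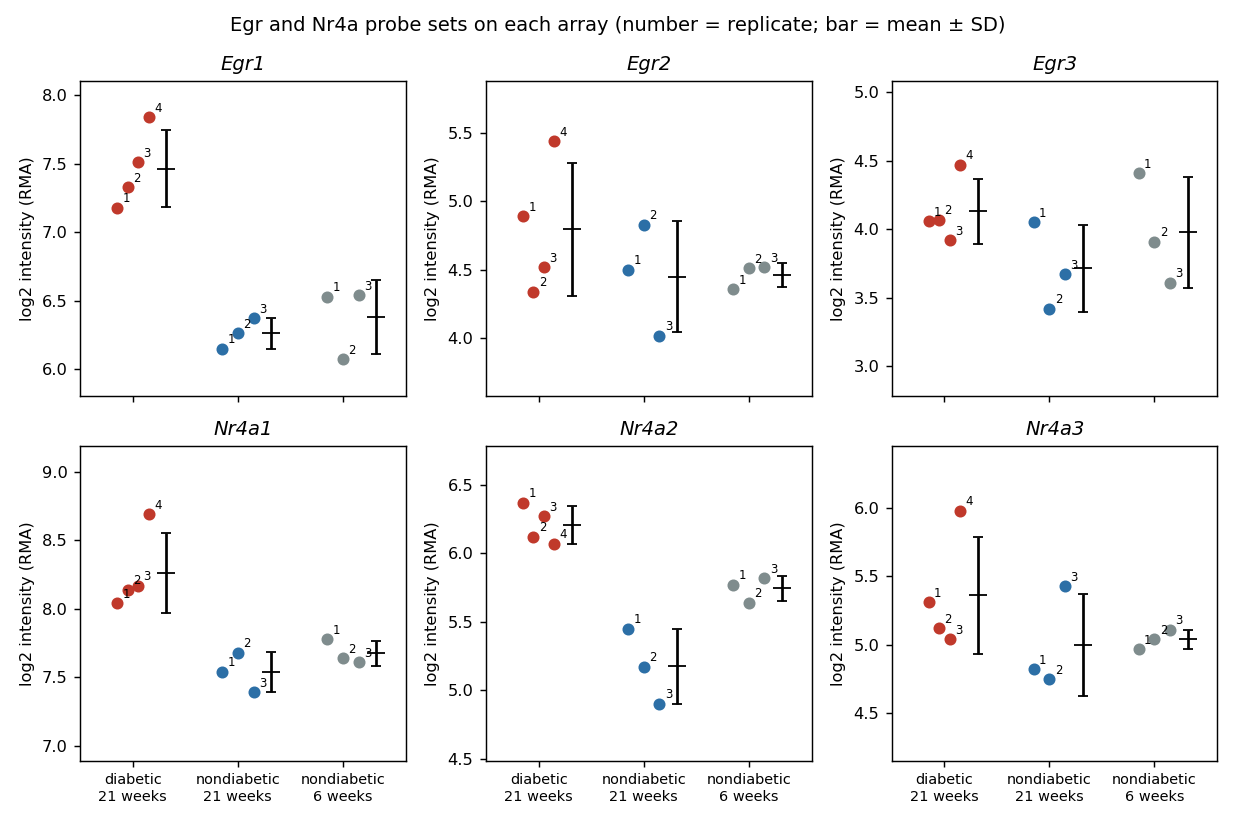
RMA log2 intensity (y axis) of the 6 genes on each array, by group (x axis: diabetic at 21 weeks in red, nondiabetic at 21 weeks in blue, nondiabetic at 6 weeks in grey). Points are arrays with their replicate number, the bar is the mean ± SD, and every panel spans the same number of log2 units. Egr1, Nr4a1 and Nr4a2 have diabetic values above both other groups, and diabetic array 4 is the highest of its group in 5 of the 6 panels.

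Whether members of a family rose by different amounts was tested in each array as the difference of their log2 values, with a two-sided exact permutation test of diabetic against nondiabetic 21-week arrays, a test chosen after seeing the data. The 6 pairs within the families gave Benjamini-Hochberg adjusted p-values of 0.343 to 0.857. The smallest unadjusted p that this two-sided test of 4 against 3 arrays allows is 0.0571. The difference of Egr1 exceeded that of Egr3 by 0.79 (exact unadjusted p = 0.0571) and that of Egr2 by 0.86 (exact p = 0.114). The difference of Nr4a2 exceeded that of Nr4a3 by 0.67 (exact p = 0.171) and that of Nr4a1 by 0.31 (exact p = 0.343). The smallest p of 0.0571 already lies above the threshold for a call, and the adjustment cannot lower it. With these arrays the test could therefore call no pair, whatever the values, and says nothing on whether members differ.

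The comparison of nondiabetic glands at 21 weeks with those at 6 weeks addresses age. It gave 0 calls among the 6 genes in limma's test, while 0.0266% of all genes were called (0.00531% higher, 0.0212% lower). At an unadjusted p under 0.05 there was 1 of the 6, beside 7.47% of all genes. All 6 differences were negative, with a median of -0.13 against -0.06 over all genes, of which 38.2% were positive. Nr4a2 was the 1 gene whose groups did not overlap, which held in the lower direction for 9.73% of all genes and in the higher direction for 4.11%. It read 5.45, 5.17 and 4.90 on the nondiabetic 21-week arrays, against 5.77, 5.64 and 5.82 on the nondiabetic 6-week arrays. That difference of -0.57 ± 0.15 (95% interval -0.90 to -0.24) did not pass after adjustment (adjusted p = 0.481). Egr1 averaged 6.26 ± 0.11 at 21 weeks and 6.38 ± 0.27 at 6 weeks (SD, n = 3 each), a difference of -0.12 ± 0.18 (adjusted p = 0.904). Nr4a1 averaged 7.54 ± 0.14 at 21 weeks and 7.68 ± 0.09 at 6 weeks (SD, n = 3 each; adjusted p = 0.869). Cell type markers shifted both ways between these groups. The median difference was 0.59 for 8 T cell and 0.63 for 9 B cell markers. For 10 endothelial and 10 fibroblast markers it was -0.46 and -0.60. In the gland's own epithelium it was 1.26 for 6 granular convoluted tubule, -0.51 for 10 acinar and 0.09 for 10 duct markers. In all these lists 0 genes were called. The part of cell makeup in the age comparison was not tested.

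Against the nondiabetic 6-week glands the diabetic glands again had all 6 differences positive, and 1 of the 6 genes was called as higher, with 0.903% of all genes called as higher and 0.542% as lower (1.44% in either direction). This comparison shares its diabetic arrays with the first one, so the values stand side by side and are not a repeat. Egr1 read 6.53, 6.07 and 6.54 on the 6-week arrays, all below the diabetic values, and the difference was 1.09 ± 0.17 (2.12-fold, 95% interval 0.72 to 1.46, adjusted p = 0.00959). Without nondiabetic 6-week array 2 the difference was 0.93 and the adjusted p 0.0588, so the call was lost.

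Nr4a1 read 7.78, 7.64 and 7.61 on the 6-week arrays, also below every diabetic value, with a difference of 0.58 ± 0.16 (95% interval 0.24 to 0.92, adjusted p = 0.0957). Nr4a2 was 0.47 ± 0.14 above the 6-week level (95% interval 0.15 to 0.78, adjusted p = 0.144), against 1.03 above the nondiabetic 21-week level. These 2 were called only when arrays were weighted (adjusted p = 0.0439 for Nr4a1 and 0.0457 for Nr4a2). The 3 genes above were the members whose groups did not overlap, which held in the higher direction for 8.2% of all genes and in the lower direction for 8.49%. For Egr2, Egr3 and Nr4a3 the differences were 0.34 ± 0.24, 0.15 ± 0.21 and 0.32 ± 0.22, with adjusted p-values of 0.562, 0.784 and 0.535.

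In order of group means, Nr4a2 stood highest in diabetic glands (6.21 ± 0.14, SD, n = 4), then in nondiabetic 6-week glands (5.74 ± 0.09, n = 3) and lowest in nondiabetic 21-week glands (5.17 ± 0.27, n = 3), with no overlap between neighbours. Egr1, Egr3, Nr4a1 and Nr4a3 had the same order of means, but their nondiabetic groups overlapped each other. For Egr2 the nondiabetic means were 4.45 ± 0.41 at 21 weeks and 4.46 ± 0.09 at 6 weeks, beside 4.80 ± 0.49 in the diabetic group.

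**Figure D3:**
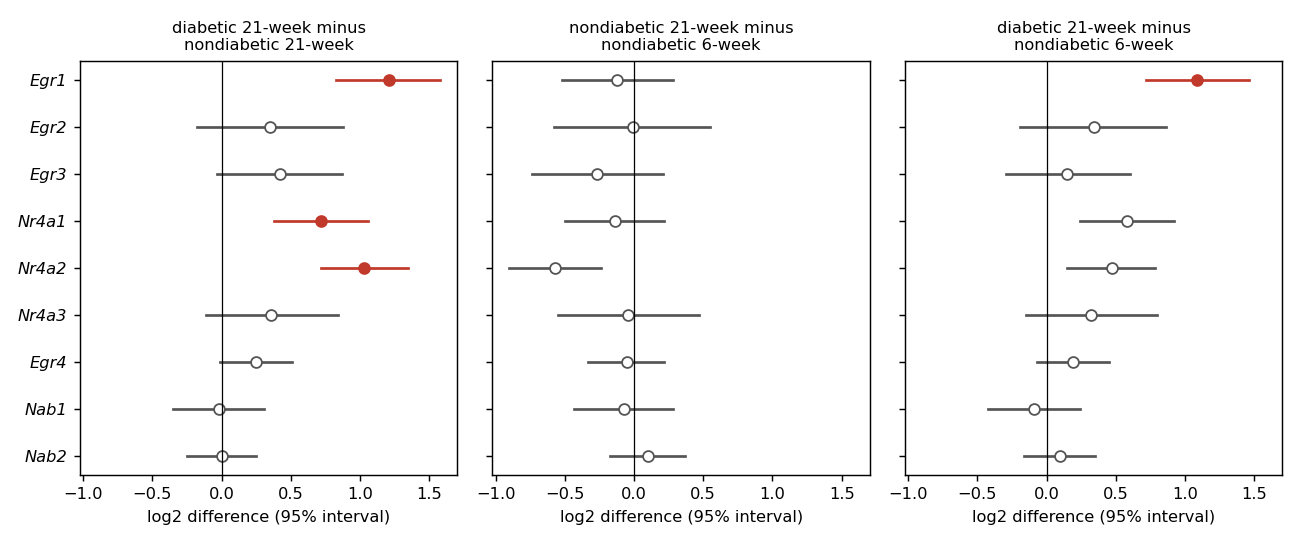
Log2 differences (x axis) with 95% intervals from the limma fit for the 6 genes and for Egr4, Nab1 and Nab2 (rows), 1 panel per comparison. Filled red points have an adjusted p under 0.05. Egr1, Nr4a1 and Nr4a2 are filled in the left panel, Egr1 in the right panel and 0 genes in the middle one.

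The partners of these factors that were measured did not change beyond the threshold. Nab1 and Nab2, the corepressors that bind Egr proteins and limit their activity, differed by -0.02 ± 0.15 (adjusted p = 0.973) and -0.00 ± 0.12 (0.998) between diabetic and nondiabetic 21-week glands. The interval of Nab2, itself an Egr target, ran from -0.25 to 0.25. Egr4 averaged 4.58 ± 0.10 in diabetic glands and 4.33 ± 0.09 in nondiabetic 21-week glands (SD, n = 4 and 3), a difference of 0.25 ± 0.12 (adjusted p = 0.338). Of the 3 retinoid X receptors, with which Nr4a1 and Nr4a2 can pair, 0 were called in limma's test in any comparison. At an unadjusted p under 0.05 there were 0 for diabetes, 1 for age and 0 for diabetic against 6-week glands.

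Of 14 measured factors that act upstream, among them serum response factor with its ETS and MRTF partners, CREB and its coactivators, and the MEF2 factors, 0 were called in any comparison. For diabetes all 14 differences were positive with a median of 0.24 (0.03 over all genes), while 56% of all genes were positive. An unadjusted p under 0.05 was reached by 3 of the 14, beside 15.8% of all genes. Srf itself, serum response factor, averaged 5.72 ± 0.21 in diabetic glands and 5.33 ± 0.24 in nondiabetic 21-week glands (SD, n = 4 and 3; 0.39 ± 0.15, adjusted p = 0.226). Creb1, which binds the CRE and is controlled mainly by phosphorylation, which arrays do not read, differed by 0.10 ± 0.13 (adjusted p = 0.745).

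Among 16 measured textbook targets of Egr factors 0 were called for diabetes, with a median of 0.19. At an unadjusted p under 0.05 there were 6 of the 16, all higher, beside 15.8% of all genes in either direction. Thbs1, the matrix protein thrombospondin 1, rose against the 6-week glands (5.45 ± 0.45 in diabetic and 4.05 ± 0.51 in nondiabetic 6-week glands, SD, n = 4 and 3; 1.40 ± 0.26, adjusted p = 0.0244). Against nondiabetic 21-week glands its difference was 1.01 ± 0.26 (adjusted p = 0.0841). Of 14 measured metabolic genes known as Nr4a targets in liver and muscle, 1 rose, 1 fell and 12 did not pass for diabetes (median 0.05), beside 1.1% of all genes called as higher and 0.34% as lower. The one that rose was Pdk4, a kinase that restrains glucose oxidation. Pfkm, the muscle type of phosphofructokinase, averaged 4.85 ± 0.22 in diabetic and 5.48 ± 0.12 in nondiabetic 21-week glands (SD, n = 4 and 3; -0.62 ± 0.14, adjusted p = 0.0419). Pdk4 had, like Nr4a2, its lowest level in nondiabetic 21-week glands: 7.58 ± 0.39 in diabetic, 5.43 ± 0.37 in nondiabetic 21-week and 6.53 ± 0.26 in nondiabetic 6-week glands (SD, n = 4, 3 and 3).

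The wider immediate-early response moved in the same arrays. Of 31 other measured immediate-early genes 14 rose, 0 fell and 17 did not pass for diabetes, with a median of 0.80 against 0.03 over all genes. Over all genes 1.1% were called as higher and 0.34% as lower. Fosb, an AP-1 subunit, rose 2.69-fold (1.43 ± 0.20, adjusted p = 0.00395) and Ier3, a stress-induced survival gene, 3.63-fold (1.86 ± 0.29, adjusted p = 0.00773). Ccn1, a matrix signal protein and a target of serum response factor, rose 2.08-fold (1.05 ± 0.11, adjusted p = 0.000608). Not all such genes followed. Arc, a gene induced by neuronal activity through serum response factor and MEF2, averaged 4.58 ± 0.23 in diabetic and 5.31 ± 0.29 in nondiabetic 21-week glands (SD, n = 4 and 3), and its difference of -0.73 ± 0.17 did not pass (adjusted p = 0.063). For age 0 of the 31 genes were called in limma's test, beside 0.0266% of all genes. At an unadjusted p under 0.05 there were 5, of which 1 was higher (7.47% of all genes in either direction). Against the 6-week glands 13 rose and 0 fell, beside 0.903% of all genes called as higher and 0.542% as lower.

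Heat shock genes, which also answer dissociation and warmth, gave 0 calls among 11 for diabetes in limma's test, with a median of 0.13. At an unadjusted p under 0.05 there were 4 of the 11, all higher, beside 15.8% of all genes in either direction. Of the 11 differences 9 were positive, while 56% of all genes were positive. Hspa1a, an inducible heat shock protein, went against most of the list. It averaged 6.79 ± 0.47 in diabetic and 7.03 ± 0.21 in nondiabetic 21-week glands (SD, n = 4 and 3; adjusted p = 0.742). The mean log2 level of the 11 genes ranged from 6.03 to 6.60 on diabetic, from 6.04 to 6.20 on nondiabetic 21-week and from 6.40 to 6.81 on nondiabetic 6-week arrays. The part of tissue handling in the rise of Egr1, Nr4a1 and Nr4a2 was not tested.

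**Figure D4:**
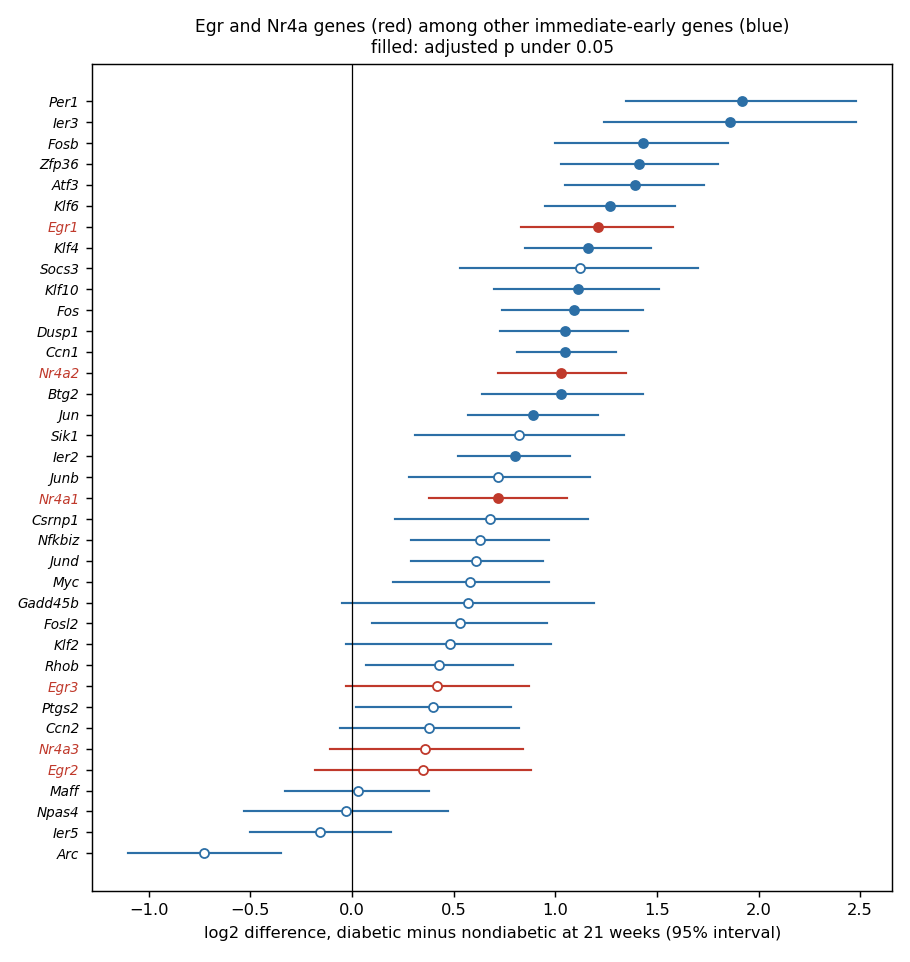
Log2 difference of diabetic minus nondiabetic 21-week glands (x axis, with 95% intervals) for the 6 Egr and Nr4a genes (red) and 31 other immediate-early genes (blue), sorted by size (rows). Filled points have an adjusted p under 0.05. Egr1 (1.21), Nr4a2 (1.03) and, lower down, Nr4a1 (0.72) are among the genes that passed. Egr3, Nr4a3 and Egr2 lie between 0.35 and 0.42 with intervals that include 0.

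The genes whose values ran most like each member over the 10 arrays were found by Pearson's correlation, given as a description, since the arrays fall into groups and share their processing. Egr1 was followed most closely by Fos (r = 0.996), Fosb (0.979) and Dusp1 (0.972), a phosphatase that switches off MAP kinases. Fos, the AP-1 subunit, read 8.97, 9.07, 9.20 and 9.52 on the diabetic arrays, against 8.01, 8.16 and 8.13 on the nondiabetic 21-week and 8.28, 7.84 and 8.28 on the nondiabetic 6-week arrays. Diabetic arrays 1 to 4 thus stand in the same order for Fos and Egr1, and nondiabetic 6-week array 2 is the lowest of all for both. With the group means subtracted Fos still came first (r = 0.982).

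Nr4a2 ran most like Sdad1 (r = 0.966), Rps6ka3 (0.957) and Adamts1 (0.957). Rps6ka3 encodes RSK2, a kinase below ERK that can phosphorylate CREB, and Adamts1 a matrix protease. Adamts1 rose in diabetic glands (5.20 ± 0.17, against 4.31 ± 0.38 in nondiabetic 21-week glands, SD, n = 4 and 3; 0.89 ± 0.19, adjusted p = 0.0369), and Rps6ka3 rose by 0.57 ± 0.13 (adjusted p = 0.0479). Nr4a1 ran most like Cblb (r = 0.983), Rnase1 (0.982) and Pan3 (0.978). Cblb, a ubiquitin ligase that restrains T cell activation, averaged 5.96 ± 0.27 in diabetic and 5.41 ± 0.09 in nondiabetic 21-week glands (SD, n = 4 and 3; adjusted p = 0.09). Of 14 lymphocyte genes tied to Nr4a or to Egr2 and Egr3, a list that holds Cblb, 0 were called in limma's test for diabetes (3 at an unadjusted p under 0.05, where 15.8% of all genes lay; median 0.02).

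Egr2 ran most like Trim59 (r = 0.947), Pde7a (0.942) and Hvcn1 (0.933), and Nr4a3 most like Spib (0.919), Cklf (0.911) and Ercc2 (0.900). Hvcn1, a proton channel, and Spib, a transcription factor, are known from B cells. Spib read 2.69, 2.26, 2.48 and 4.45 on the diabetic arrays, against 2.47, 2.26 and 2.96 on the nondiabetic 21-week arrays, so that diabetic array 4 stood far above the rest. Egr3 had weaker matches, Hirip3 (r = 0.924), H4f16 (0.880) and Mast4 (0.879). To the mean of the 6 genes, each scaled to its spread over the arrays, Pan3 (r = 0.967), Fut8 (0.958), Cblb (0.956), Ifngr1 (0.955), Rps18 (0.955), St3gal6 (0.951), Rnase1 (0.945) and Rps19 (0.938) ran closest.

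Between the members, Egr1 and Nr4a1 ran together most closely over the 10 arrays (r = 0.93). With the group means subtracted, Nr4a1 ran most like Rufy2 (r = 0.991), Nr4a2 like Slfn5 (0.983), Egr2 like Fam162b (0.981), Nr4a3 like Slc26a7 (0.975) and Egr3 like Kif3c (0.960), so apart from Fos for Egr1 the closest gene differed from that over all arrays. On that scale Egr2 and Nr4a1 had r = 0.75, Egr1 and Nr4a1 had 0.66, Nr4a2 and Egr1 had -0.32, and Nr4a2 and Nr4a3 had -0.58. Diabetic array 4 was the highest of its group for the other 5 genes and the lowest of its group for Nr4a2.

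**Figure D5:**
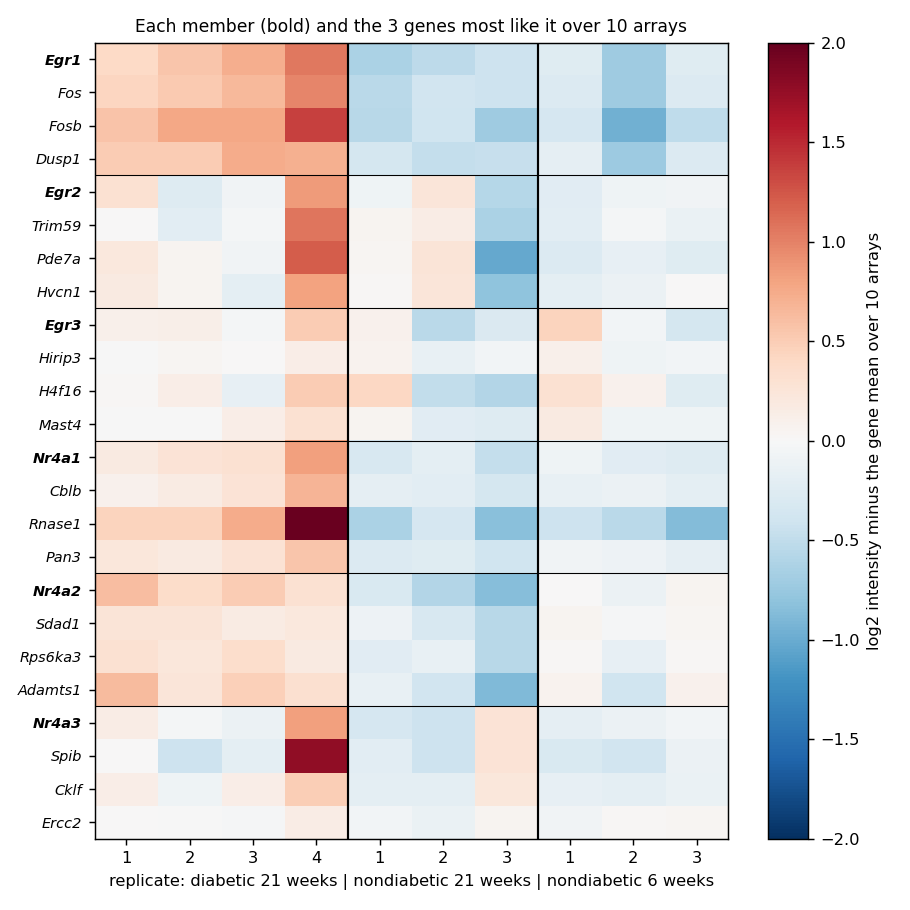
RMA log2 intensity minus the mean of the gene over the 10 arrays (colour), for each of the 6 genes (bold) and the 3 genes most like it (rows) on each array (columns, by group and replicate). The block of Egr1 is high on all 4 diabetic arrays, that of Nr4a2 is low on the nondiabetic 21-week arrays, and the blocks of Egr2 and Nr4a3 are highest on diabetic array 4.

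Markers of other cells moved with the arrays. On diabetic array 4 the mean log2 level of 8 T cell markers was 5.47 and that of 9 B cell markers 5.41. On the other 3 diabetic arrays these means were 4.26 to 4.33 and 3.80 to 4.17, and on the nondiabetic 21-week arrays 3.89 to 4.69 and 3.58 to 4.25. All 8 and all 9 markers lay above the 25th percentile of the diabetic arrays. Without diabetic array 4 Nr4a1 remained called, with a difference of 0.58 (adjusted p = 0.0439), and without both that array and nondiabetic 21-week array 3 the difference of Egr2 was -0.08 (adjusted p = 0.863).

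Other lists separated diabetic from nondiabetic 21-week arrays, as Egr1, Nr4a1 and Nr4a2 did. Beside the counts that follow, 1.1% of all genes were called as higher and 0.34% as lower. The mean of 10 macrophage and monocyte markers was 5.63 to 6.14 on diabetic and at most 5.21 on nondiabetic 21-week arrays, with 2 rising (Cd68 and Mrc1). The mean of 10 fibroblast markers was 5.73 to 6.11 on diabetic and 4.60 to 5.44 on nondiabetic 21-week arrays, with 0 called. For 9 myoepithelial and smooth muscle markers it was 4.64 to 4.97 and 3.99 to 4.43, with 2 rising (Acta2 and Myh11), and for 7 adipocyte markers 4.51 to 4.79 and 3.80 to 4.17, with 2 rising (Fabp4 and Retn). Markers of the gland's own epithelium separated these arrays too, in both directions. Of 6 measured granular convoluted tubule markers 5 fell, with a median difference of -3.37 (means of 5.84 to 7.69 on diabetic and 9.86 to 10.42 on nondiabetic 21-week arrays). Of 10 acinar markers 2 rose (Amy1 and Bpifa2), with a median of 1.54 (10.41 to 10.89 on diabetic and 7.19 to 9.74 on nondiabetic 21-week arrays). Of 10 duct markers 2 fell (Ascl3 and Scnn1b), with a median of -0.23 (5.83 to 6.09 on diabetic and 6.22 to 6.33 on nondiabetic 21-week arrays). Endothelial markers (5.02 to 5.50 on diabetic and 4.86 to 5.38 on nondiabetic 21-week arrays) and the 6 measured Schwann cell and nerve markers (4.44 to 4.50 and 4.21 to 4.45) overlapped. The part of cell makeup in the rise of Egr1, Nr4a1 and Nr4a2 was not tested.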

How the data were processed

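The authors deposited RMA-normalized log2 intensities for each probe set. The submitters' processing notes name Affymetrix Power Tools, with no version or settings in the sources used here. Of 41345 probe sets, 23521 had 1 gene symbol in the platform's gene table (1814 had several, 16010 were unnamed here). A gene entered the tests through its brightest probe set, if that lay above the 25th percentile of at least 3 arrays. A mean per group was fitted to 10 arrays with limma 3.58.1 in R 4.3.3 (7 residual and 5.61 prior degrees of freedom), two-sided. In simulated data for the diabetes comparison (18826 genes), planted log2 changes of 1 and 2 were recovered for 82% and 99% of genes, with 11 false calls. The simulated noise was normal and independent between genes, with no effect shared by an array. These figures therefore check the fit and do not give its error rates on the real arrays.

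Named genes were the 6 members, Egr4, Nab1 and Nab2, the 3 genes most like each member by Pearson's r, without predicted models, over the arrays and with group means subtracted, the 8 most like their mean, and up to 4 called genes with the smallest p per pathway list and comparison. Some of these go unnamed. Creb1, Srf, Arc, Ier3, Hspa1a and the single cell type markers were named after their values were seen. The members and lists were chosen with earlier results of these data known. Exact permutation tests used scipy 1.17.1. Alternatives changed the filter, probe set rule, scaling, variance model, weights, threshold, arrays or block.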

Additional observations from a re-analysis of the deposited data

Results flagged for a closer look

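Of 57 named genes examined in the 4 diabetic arrays, 3 had an array far from the others, and chance alone flags about 1 in 20 groups. Many of the 57 were picked for running like the members on these same arrays. They are thus not independent of each other, and that rate is only a rough guide. All 3 flagged genes concern diabetic array 4. Nab1 read 5.03 there, against 5.29 on the nearest and 5.33 on the farthest of the other diabetic arrays. Trim59, the gene most like Egr2 over the arrays, read 5.13 there and 3.86 to 4.07 on the other 3. Carns1, one of the genes most like Nr4a3 with group means subtracted, read 4.84 there and 4.35 to 4.37 on the other 3. None of the 6 Egr and Nr4a genes met this rule.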

How the results depend on the processing

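Each comparison was recomputed under 24 alternatives. For diabetes, the count of members called was 3 and became 2 wherever Nr4a1 was lost, and Egr1 and Nr4a2 were called throughout. Of 144 member values 128 kept direction and side of the threshold, 15 lost the call (all Nr4a1) and 1 reversed, Egr2 at -0.0816 without both nondiabetic 21-week array 3 and diabetic array 4, a setting chosen after seeing the data. Nr4a1 had an adjusted p of 0.0528 with no filter, 0.0978 with only the 2 groups fitted, 0.0864 with quantile normalization and 0.102 without both arrays. Same-numbered arrays of different groups share only a number (correlations of their deviations from group means were -0.118 to 0.066). With that replicate number as a block, Nr4a1 differed by 0.58 (adjusted p = 0.0898), 2 members were called for diabetes, and no other member's call changed.

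For age, 0 members were called under all alternatives, and 134 of 144 values kept their direction. Egr2 reversed to 0.15 with array weights, 0.0417 with quantile normalization, 0.0121 with median centring and 0.20 without both arrays, and Nr4a3 to 0.0178 with quantile normalization. With each array left out, Egr2 ranged from -0.20 to 0.20 and Nr4a3 from -0.25 to 0.0828. For diabetic against 6-week glands the count of 1 member became 3 with array weights and was 0 to 1 with an array left out, and Egr3 ranged from -0.0307 to 0.37.

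Over all genes the calls were 271 for diabetes, 5 for age and 272 for diabetic against 6-week glands, the order kept below. An adjusted p under 0.01 left 69, 3 and 58, and a 2-fold minimum 148, 5 and 128. Fitting only the groups compared gave 161, 0 and 310, and array weights 367, 18 and 672. Trended variance gave 378, 9 and 386, and trended robust variance 364, 12 and 369. Without an array the counts ran from 84 (nondiabetic 21-week array 3) to 268, from 1 to 10, and from 48 (nondiabetic 6-week array 3) to 393 (nondiabetic 21-week array 3), and without both arrays they were 175, 39 and 505. The small number of arrays limits precision. The cause of these shifts was not tested.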
